A study of Homo sapiens with 18 samples.

Results

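The Notch pathway was followed here through 10 genes, taken by name: the receptors NOTCH1, NOTCH2 and NOTCH3, the ligands JAG1, JAG2 and DLL1, the receptor-modifying enzyme LFNG, the nuclear coactivator MAML1, and the target genes HES1 and HEY1. All 10 were among the 41120 symbols of the deposited count table, and all 10 were among the 12291 genes with enough counts to be tested. They were chosen by symbol. The libraries came from SCC154, an HPV-positive head and neck squamous carcinoma line, and from FaDu, an HPV-negative line of the same cancer type, both carrying a hypoxia fate-mapping reporter that switches cells from DsRed to GFP. Cells were grown as spheroids in ultra-low attachment plates, dissociated with trypsin and sorted, and the sorted cells were then cultured and passaged in normal oxygen, so RNA was taken after and not during low oxygen. There were 4 libraries of GFP+ (post-hypoxic) SCC154 cells, 5 of DsRed+ (non-hypoxic) SCC154 cells, 5 of post-hypoxic FaDu cells and 4 of non-hypoxic FaDu cells. Values are given in the order of the replicate numbers, which run from 2 to 5 in post-hypoxic SCC154 cells and start at 1 in the other groups. All groups carried the reporter and had passed through a spheroid. Each HPV status was represented by 1 line, so that virus and line cannot be told apart. The comparisons asked whether Notch transcripts still differed in cells that had once met low oxygen, and how the lines differed.

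Notch is a signal between touching cells. A ligand of the Jagged or Delta-like family on one cell binds a Notch receptor on its neighbour, the receptor is cut by ADAM proteases and then by gamma-secretase, and the freed intracellular part enters the nucleus, where it joins the DNA-binding protein RBPJ and a Mastermind coactivator to switch on HES and HEY repressor genes. In squamous epithelium the pathway is known for guiding cells out of the basal layer into differentiation, and NOTCH1 is often inactivated by mutation in head and neck squamous carcinoma.

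Promoter sequence with words of the kind RBPJ binds is shown first for HES1, the member best known as a direct target, and for HES4 and HES5, other genes of its family. HES4 differed strongly between the lines here while HES1 did not pass the test, and HES5 had 0 to 2 counts per group. The runs are the 250 bases before the RefSeq start (GRCh38.p14), written 5′ to 3′ along the strand of the gene, at chr3:194135898-194136147 (plus strand) for HES1, chr1:1000098-1000347 (minus strand) for HES4 and chr1:2530264-2530513 (minus strand) for HES5. Capitals mark the RBPJ-type words GTGGGAA and GTGTGAA on either strand, so that TTCCCAC and TTCACAC are the same words read on the other strand.
HES1: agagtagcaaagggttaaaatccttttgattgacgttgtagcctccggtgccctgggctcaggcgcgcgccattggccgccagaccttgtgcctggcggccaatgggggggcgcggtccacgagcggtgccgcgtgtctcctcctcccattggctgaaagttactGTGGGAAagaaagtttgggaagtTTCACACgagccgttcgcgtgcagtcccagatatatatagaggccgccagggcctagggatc
HES4: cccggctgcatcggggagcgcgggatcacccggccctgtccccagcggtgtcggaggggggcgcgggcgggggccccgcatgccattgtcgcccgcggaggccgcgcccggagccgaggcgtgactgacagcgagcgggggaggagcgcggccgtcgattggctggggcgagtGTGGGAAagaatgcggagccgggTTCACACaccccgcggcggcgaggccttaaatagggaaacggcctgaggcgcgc
HES5: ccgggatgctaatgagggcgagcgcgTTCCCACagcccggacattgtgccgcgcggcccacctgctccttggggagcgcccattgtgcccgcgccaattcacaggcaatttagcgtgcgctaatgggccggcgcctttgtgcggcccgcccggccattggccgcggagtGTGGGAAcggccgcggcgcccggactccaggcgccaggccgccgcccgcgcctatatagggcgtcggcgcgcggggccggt
In HES1 the GTGGGAA word lay 85 to 79 bases before the start and a reversed GTGTGAA lay 62 to 56 bases before it. HES4 held the same pair, on opposite strands and with the same spacing, at 77 to 71 and 54 to 48 bases. HES5 held GTGGGAA at 81 to 75 bases and its reverse at 224 to 218 bases. The GTGTGAA word was added to the search after the HES1 sequence had been read. The words do not overlap each other. Of 35116 promoter entries of full length, 5.43% held GTGGGAA, 2.48% held GTGTGAA and 0.188% held both. Of the 10 members, 8 had an entry, and HES1 was the only one of these 8 with GTGGGAA. Of the other HES and HEY genes looked up besides the 3 shown, HEY2 and HEYL held GTGGGAA once, and HES2, HES6 and HES7 held neither word. A match is a description of the letters and does not show binding.

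The values are 3′ tags, read close to the poly(A) tail of a transcript, counted per gene and given as counts scaled to a common library size (CPM) by trimmed-mean factors. The libraries held 1654719 to 2503573 counts each, and 1 CPM was worth 1.68 to 2.44 counts. The 10 epithelial markers checked (keratins, TP63, CDH1, EPCAM and DSP) summed to between 1694 and 2693 CPM per library. Those of fibroblasts, endothelial and immune cells summed to at most 5.80, 5.18 and 2.98 CPM. Small sums moved with the groups: the 5 immune markers summed to 1.64 to 2.98 CPM in post-hypoxic SCC154 libraries (3 markers at 0) and 0 to 0.867 CPM in non-hypoxic ones (2 at 0), and the 6 fibroblast markers to 1.82 to 3.69 CPM in post-hypoxic (4 at 0) and 3.90 to 5.80 CPM in non-hypoxic SCC154 libraries (4 at 0). In FaDu the fibroblast markers summed to 0.454 to 2.64 CPM in post-hypoxic and 0 to 2.00 CPM in non-hypoxic libraries. Between the lines, the 4 endothelial markers summed to 2.27 to 4.51 CPM in SCC154 and 0 to 0.908 CPM in FaDu for post-hypoxic cells, and to 2.17 to 5.18 CPM in SCC154 and 0 to 1.497 CPM in FaDu for non-hypoxic cells. In the SCC154 libraries CDH5 was the only endothelial marker above 0. The part of these few counts in the results was not tested. Within their line, 3 libraries stood apart in a principal component analysis by the size of their loading on components 1 to 3. They were post-hypoxic SCC154 replicate 3 (0.787, component 2), non-hypoxic SCC154 replicate 1 (0.756, component 3) and non-hypoxic FaDu replicate 2 (0.756, component 3). Post-hypoxic SCC154 replicate 4 came next and was not among them, with 0.678 on component 1, which held 32% of the variance in its line. With all 3 left out, the number of members called was the same in each comparison. Nothing in the labels says that replicates were separate cultures or sorts, so p-values measure only how much these libraries vary, and that variation may be technical. In such bulk samples, fewer cells that make a transcript and less of it per cell cannot be told apart.

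Between post-hypoxic and non-hypoxic cells no member passed the threshold in either line in the fit without a block for the replicate number. In SCC154, 0 of 10 members were called by edgeR's quasi-likelihood test at a Benjamini-Hochberg adjusted p under 0.05, while 0.757% of all tested genes were (93 genes, 0.334% higher and 0.423% lower). DESeq2 and limma voom called 0 members as well, and 1 member, JAG2, had an unadjusted p under 0.05. With the replicate block in SCC154, whose numbers were not taken to pair its samples, edgeR called 2 members. These were JAG2 (edgeR adjusted p = 0.0147) and HES1 (edgeR adjusted p = 0.0293), with 1052 genes called in all. In FaDu, 0 of 10 members were called against a background of 0% (0 of 12291 genes), again with 0 by DESeq2 and limma voom. JAG1 was the 1 member with an unadjusted p under 0.05 in the fit without a block. With the replicate block in FaDu, the edgeR unadjusted p was 0.00514 for JAG1 and 0.00956 for JAG2, and neither was called. The median log2 fold change of the members was −0.01 in SCC154 and 0.02 in FaDu, while that of all tested genes was 0 in SCC154 and −0.0035 in FaDu. The median absolute log2 fold change was 0.175 for the members and 0.183 for all tested genes in SCC154, and 0.181 for the members and 0.1104 for all tested genes in FaDu.

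Between the lines most members differed. In post-hypoxic cells 7 of 10 members were called, 5 higher and 2 lower in SCC154, where 69.7% of all tested genes were called (34.8% higher and 34.9% lower). The libraries of the lines did not overlap for 7 members in post-hypoxic cells, where this held for 57.3% of all tested genes, and for 5 members in non-hypoxic cells, where it held for 56.5%. In non-hypoxic cells it was 6 of 10, 4 higher and 2 lower in SCC154, where 68.9% of all genes were called (34.5% in each direction). The members' share was thus near that of all genes. SCC154 cells had more JAG1, DLL1, LFNG and HEY1 mRNA and less NOTCH2 and MAML1 mRNA in both populations, and more JAG2 among post-hypoxic cells. The comparisons within and between lines share libraries, since each group enters one of each kind. HEY1 passed the filter on low counts through its SCC154 libraries, and without it 6 of 9 members were called in post-hypoxic and 5 of 9 in non-hypoxic cells.

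**Figure D1:**
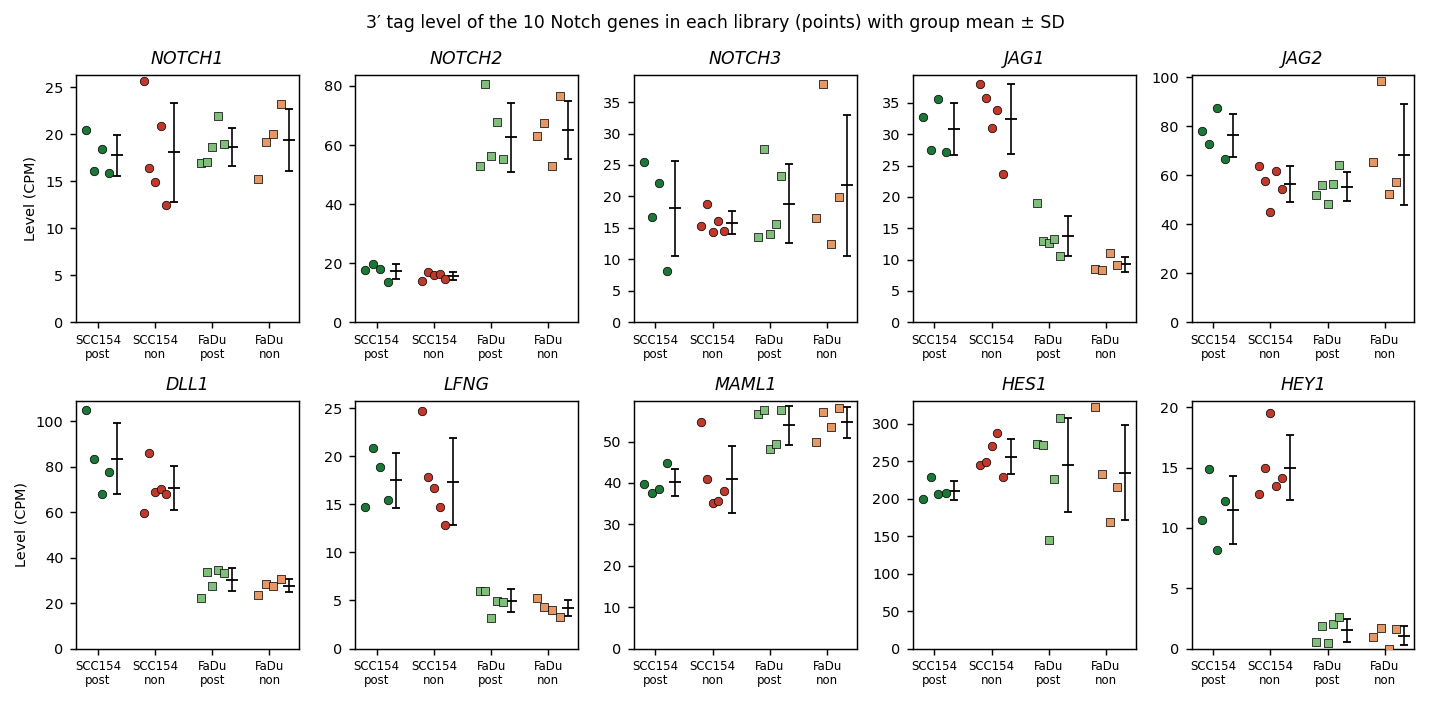
Level of each of the 10 genes in CPM (vertical axis, starting at 0) in post-hypoxic and non-hypoxic SCC154 and FaDu libraries; points are libraries and bars are the mean ± SD of a group. NOTCH2 lies lower in all SCC154 libraries than in any FaDu library, and JAG1, DLL1, LFNG and HEY1 lie higher, while JAG2 in post-hypoxic SCC154 cells lies above all non-hypoxic SCC154 libraries.

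Among the receptors, NOTCH2 separated the lines and NOTCH1 and NOTCH3 did not. NOTCH2 (hg38, chromosome 1, 119911553 to 120069626, minus strand) is a broadly expressed receptor. Its level was 17.6, 19.7, 18.04 and 13.6 CPM in post-hypoxic SCC154 cells, against 13.8, 16.9, 16.1, 16.5 and 14.5 CPM in non-hypoxic SCC154 cells. In FaDu it was 52.9, 80.5, 56.3, 67.7 and 55.4 CPM in post-hypoxic cells, against 63.2, 67.5, 52.9 and 76.6 CPM in non-hypoxic cells. Every SCC154 library thus lay below every FaDu library, and the populations of each line overlapped. Means were 17.2 ± 2.58 CPM in SCC154 and 62.6 ± 11.5 CPM in FaDu for post-hypoxic cells (SD, n = 4 and 5), and 15.6 ± 1.33 CPM in SCC154 and 65.1 ± 9.82 CPM in FaDu for non-hypoxic cells (SD, n = 5 and 4). NOTCH2 was lower in SCC154 with a log2 fold change of −1.86 in post-hypoxic cells (SE 0.16, edgeR quasi-likelihood adjusted p = 5.00e-10) and −2.06 in non-hypoxic cells (SE 0.16, edgeR adjusted p = 6.84e-11). Of all tested genes, 17.7% had a larger absolute log2 fold change in post-hypoxic cells and 14.9% in non-hypoxic cells. Of the tags of the 3 receptors, NOTCH2 made up 27.7 to 37.5% in post-hypoxic and 25.2 to 35.4% in non-hypoxic SCC154 libraries, and 56.8 to 64.3% in post-hypoxic and 54.2 to 66.5% in non-hypoxic FaDu libraries.

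NOTCH2 has near-identical partial copies in the human genome, the NOTCH2NL genes, and the sources used here do not give how shared reads were assigned. The copies counted separately had mean levels over all libraries of 7.28 CPM for NOTCH2NLC, 4.38 CPM for NOTCH2NLR, 2.75 CPM for NOTCH2NLA and 0.187 CPM for NOTCH2NLB, so the NOTCH2 value carries an uncertainty that these counts do not resolve. The largest copy, NOTCH2NLC, averaged 6.86 and 7.54 CPM in post-hypoxic SCC154 and FaDu cells, and 7.60 and 6.996 CPM in non-hypoxic SCC154 and FaDu cells.

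NOTCH1 (chromosome 9, 136494433 to 136545786, minus strand), the receptor most tied to squamous differentiation, overlapped in level across all 4 groups. Post-hypoxic SCC154 cells had 20.5, 16.1, 18.4 and 15.9 CPM, against 25.7, 16.4, 15.0, 20.8 and 12.4 CPM in non-hypoxic SCC154 cells. Post-hypoxic FaDu cells had 16.9, 17.03, 18.6, 21.9 and 18.9 CPM, against 15.2, 19.2, 20.0 and 23.2 CPM in non-hypoxic FaDu cells. The non-hypoxic SCC154 libraries held both the highest value, in replicate 1, and the lowest, in replicate 5. The log2 fold change of post-hypoxic over non-hypoxic cells had a 95% interval of −0.42 to 0.38 in SCC154 and −0.44 to 0.35 in FaDu, and that of SCC154 over FaDu one of −0.47 to 0.32 in post-hypoxic and −0.49 to 0.30 in non-hypoxic cells. The edgeR quasi-likelihood adjusted p was 0.984 and 1 within SCC154 and FaDu, and 0.751 and 0.664 between the lines in post-hypoxic and non-hypoxic cells.

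NOTCH3 (chromosome 19, 15159038 to 15200981, minus strand), a receptor studied mostly in vascular smooth muscle, had the widest spread of the 3 receptors, relative to its mean, in post-hypoxic SCC154 cells and in both FaDu populations. It had 25.4, 16.7, 22.1 and 8.17 CPM in post-hypoxic SCC154 cells, against 15.3, 18.8, 14.4, 16.0 and 14.5 CPM in non-hypoxic SCC154 cells. In FaDu the values were 13.6, 27.6, 14.1, 15.7 and 23.3 CPM in post-hypoxic cells, against 16.6, 37.9, 12.5 and 20.0 CPM in non-hypoxic cells. Replicate 2 was the highest library of both FaDu populations, and the lowest library of all was post-hypoxic SCC154 replicate 5. The difference in FaDu was −0.21 on the log2 scale (SE 0.29, 95% interval −0.82 to 0.39, edgeR adjusted p = 1), and its sign rested on 1 library: without non-hypoxic replicate 2 it was 0.22. Within SCC154 the difference was 0.21 (SE 0.31, edgeR adjusted p = 0.786). Between the lines the log2 fold change was −0.05 in post-hypoxic cells (SE 0.30, edgeR adjusted p = 0.890) and −0.47 in non-hypoxic cells (SE 0.30, edgeR adjusted p = 0.169). Without non-hypoxic FaDu replicate 2 the last value was −0.04 (edgeR adjusted p = 0.906).

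The ligands held the members whose post-hypoxic and non-hypoxic values lay furthest apart for their error, JAG2 in SCC154 and JAG1 in FaDu. Neither was called in the fit without a block. JAG2 (chromosome 14, 105140981 to 105168824, minus strand), a Jagged ligand of basal epithelial cells, had 78.2, 72.8, 87.3 and 66.7 CPM in post-hypoxic SCC154 cells, against 63.7, 57.5, 44.9, 61.6 and 54.3 CPM in non-hypoxic SCC154 cells. Every post-hypoxic library was above every non-hypoxic one, the single case among the 10 members, while 5.55% of all tested genes had groups that did not overlap in SCC154. Means were 76.3 ± 8.75 and 56.4 ± 7.395 CPM in post-hypoxic and non-hypoxic cells (SD, n = 4 and 5), a log2 fold change of 0.43 (SE 0.16, 95% interval 0.11 to 0.76) with an edgeR quasi-likelihood adjusted p of 0.174. This value did not pass the threshold. With the replicate block, whose numbers were not taken to pair the SCC154 samples, it was 0.48 and was called (edgeR adjusted p = 0.0147).

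In FaDu, JAG2 had 51.8, 56.1, 48.1, 56.5 and 64.2 CPM in post-hypoxic cells, against 65.6, 98.4, 52.4 and 57.2 CPM in non-hypoxic cells. Here the groups overlapped, as they did for all 10 members in FaDu, where 1.07% of tested genes had groups that did not overlap. Non-hypoxic replicate 2, at 98.4 CPM, lay above the other FaDu libraries, and in the 4 pairs of replicates with the same number the post-hypoxic library was the lower one each time. Same-numbered SCC154 libraries were not taken as pairs. Among them the post-hypoxic library was the higher one in 4 of 4 for JAG2 and the lower one in 4 of 4 for HES1 and for HEY1. The log2 fold change was −0.31 (SE 0.16, 95% interval −0.64 to 0.02, edgeR adjusted p = 1), and it was −0.07 without non-hypoxic replicate 2. With the replicate block, which pairs the FaDu samples, it was −0.345 (SE 0.123, edgeR unadjusted p = 0.00956, adjusted p = 0.729). The difference between the lines in this contrast was 0.74 on the log2 scale (SE 0.22, 95% interval 0.28 to 1.20, unadjusted p = 0.00274 from edgeR), the largest relative to its error among the members, and its adjusted p over all genes was 0.321. It was not called. A fit with the replicate number as a block in both lines, where the numbers were taken to pair the samples of FaDu but not of SCC154, gave 0.82 and called it (edgeR adjusted p = 0.0178). JAG2 was higher in post-hypoxic SCC154 than in post-hypoxic FaDu cells, by 0.46 on the log2 scale (SE 0.16, edgeR adjusted p = 0.0114). Among non-hypoxic cells it was −0.28 (SE 0.16, edgeR adjusted p = 0.117), and of the alternatives tried it was called in 1, without non-hypoxic FaDu replicate 3 (−0.39, edgeR adjusted p = 0.0393). Without non-hypoxic FaDu replicate 2 it was −0.05 (edgeR adjusted p = 0.775). That the lines' difference was called in one population and not in the other is the comparison just given, with its adjusted p of 0.321 without the block.

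JAG1 (chromosome 20, 10637684 to 10673999, minus strand), the other Jagged ligand and itself a known Notch target in some tissues, was higher in SCC154. It had 32.8, 27.4, 35.7 and 27.2 CPM in post-hypoxic SCC154 cells, against 38.0, 35.8, 31.1, 33.8 and 23.6 CPM in non-hypoxic SCC154 cells. Post-hypoxic FaDu cells had 19.1, 12.9, 12.7, 13.2 and 10.6 CPM, against 8.56, 8.27, 10.98 and 9.17 CPM in non-hypoxic FaDu cells. All SCC154 libraries were above all FaDu libraries. Among the FaDu libraries, 4 of 5 post-hypoxic ones were above every non-hypoxic one, and the fifth, at 10.6 CPM, lay below the highest non-hypoxic library at 10.98 CPM. The post-hypoxic library was the higher one in 4 of 4 same-numbered FaDu pairs. Means in FaDu were 13.7 ± 3.19 and 9.24 ± 1.22 CPM in post-hypoxic and non-hypoxic cells (SD, n = 5 and 4), resting on 17 to 35 counts per library, with a log2 fold change of 0.55 (SE 0.21, 95% interval 0.12 to 0.99, unadjusted p = 0.0148, edgeR adjusted p = 1). The SCC154 value was −0.07 (SE 0.16, 95% interval −0.40 to 0.27, edgeR adjusted p = 0.880). The difference between the lines in this contrast was −0.62 (SE 0.27, unadjusted p = 0.0288, edgeR adjusted p = 0.457) and was not called. Of the 10 members, 0 were called in that comparison, where 0.0163% of all tested genes were (2 genes); DESeq2 and limma voom called 0, and the unadjusted p was under 0.05 for 2 members, JAG1 and JAG2.

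Between the lines JAG1 was higher in SCC154 by 1.19 on the log2 scale in post-hypoxic cells (SE 0.18, edgeR adjusted p = 2.67e-06) and by 1.81 in non-hypoxic cells (SE 0.19, edgeR adjusted p = 1.92e-08). The neighbouring gene SLX4IP ends 855 bases from the 3′ end of JAG1 on the opposite strand and averaged 29.8 CPM, and the annotated spans do not overlap.

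DLL1 (chromosome 6, 170282206 to 170306565, minus strand), a Delta-like ligand, had 105, 83.5, 68.1 and 77.6 CPM in post-hypoxic SCC154 cells, against 59.7, 86.0, 69.0, 70.3 and 68.0 CPM in non-hypoxic SCC154 cells. In FaDu it had 22.3, 33.6, 27.7, 34.7 and 33.4 CPM in post-hypoxic cells, against 23.8, 28.3, 27.5 and 30.7 CPM in non-hypoxic cells. The lowest SCC154 library, at 59.7 CPM, exceeded the highest FaDu library, at 34.7 CPM, and the populations overlapped within each line. DLL1 was higher in SCC154 by 1.45 on the log2 scale in post-hypoxic cells (SE 0.15, edgeR adjusted p = 8.99e-09) and by 1.36 in non-hypoxic cells (SE 0.16, edgeR adjusted p = 6.78e-08). Post-hypoxic over non-hypoxic cells gave 0.24 in SCC154 (SE 0.14, edgeR adjusted p = 0.422) and 0.15 in FaDu (SE 0.16, edgeR adjusted p = 1). DLL1 overlaps FAM120B on the opposite strand, which averaged 13.3 CPM, but FAM120B starts 8497 bases from the 3′ end of DLL1, where 3′ tags are read.

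**Figure D2:**
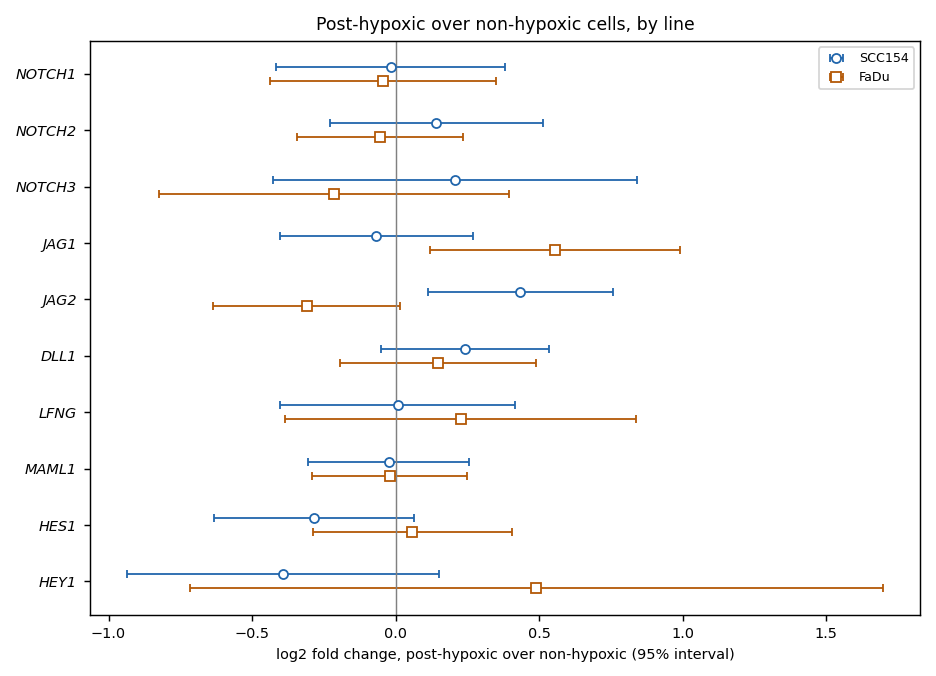
Log2 fold change of post-hypoxic over non-hypoxic cells (horizontal axis) for each of the 10 genes in SCC154 and in FaDu; points are edgeR estimates, bars are 95% intervals, and open symbols mark values that did not pass the adjusted threshold. All symbols are open, and the intervals of JAG2 in SCC154 (0.11 to 0.76) and JAG1 in FaDu (0.12 to 0.99) lie to the right of 0.

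LFNG (chromosome 7, 2512529 to 2529177, plus strand) encodes Lunatic fringe, a Golgi enzyme that adds sugar to Notch receptors and shifts their response towards Delta-like ligands. Its level was 14.7, 20.9, 18.9 and 15.4 CPM in post-hypoxic SCC154 cells, against 24.7, 17.9, 16.7, 14.7 and 12.9 CPM in non-hypoxic SCC154 cells. FaDu cells had 5.99, 5.98, 3.18, 4.95 and 4.84 CPM when post-hypoxic, against 5.23, 4.36, 3.99 and 3.24 CPM when non-hypoxic, from 6 to 13 counts per library. The lines did not overlap. LFNG was higher in SCC154 by 1.80 on the log2 scale in post-hypoxic cells (SE 0.23, 3.47-fold, edgeR adjusted p = 3.26e-07) and by 2.01 in non-hypoxic cells (SE 0.25, 4.04-fold, edgeR adjusted p = 1.82e-07). Post-hypoxic and non-hypoxic cells differed by 0.01 in SCC154 (95% interval −0.40 to 0.42) and by 0.23 in FaDu (95% interval −0.38 to 0.84), neither of them called.

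MAML1 (chromosome 5, 179732850 to 179777286, plus strand), a Mastermind coactivator, showed the smallest called difference between the lines. It had 39.7, 37.6, 38.5 and 44.9 CPM in post-hypoxic SCC154 cells, against 54.8, 41.1, 35.1, 35.6 and 38.1 CPM in non-hypoxic SCC154 cells. In FaDu it had 56.7, 57.5, 48.1, 49.5 and 57.6 CPM in post-hypoxic cells, against 49.9, 57.1, 53.4 and 58.2 CPM in non-hypoxic cells. Post-hypoxic SCC154 libraries all lay below post-hypoxic FaDu libraries, whereas among non-hypoxic cells SCC154 replicate 1, at 54.8 CPM, reached into the FaDu range. MAML1 was lower in SCC154 with a log2 fold change of −0.42 in post-hypoxic cells (SE 0.13, edgeR adjusted p = 0.00767) and −0.42 in non-hypoxic cells (SE 0.13, edgeR adjusted p = 0.00795), and 68.8% and 68.4% of tested genes had a larger absolute log2 fold change in these populations. Post-hypoxic over non-hypoxic cells gave −0.02 in each line, with 95% intervals of −0.30 to 0.26 in SCC154 and −0.29 to 0.25 in FaDu.

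Of the target genes, HEY1 was called between the lines and HES1 was not. HES1 (chromosome 3, 194136145 to 194138732, plus strand), a repressor that keeps cells undifferentiated in many tissues, had 199, 229, 206 and 207 CPM in post-hypoxic SCC154 cells, against 244, 249.3, 271, 288 and 229 CPM in non-hypoxic SCC154 cells. The groups overlapped only where the highest post-hypoxic and the lowest non-hypoxic library both came to 229 CPM. Means were 211 ± 12.9 and 256 ± 23.1 CPM in post-hypoxic and non-hypoxic cells (SD, n = 4 and 5). The log2 fold change was −0.28 (SE 0.17, 95% interval −0.63 to 0.06, edgeR adjusted p = 0.431), which did not pass the threshold. With the replicate block, whose numbers were not taken to pair the SCC154 samples, it was −0.30 and was called (edgeR adjusted p = 0.0293).

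FaDu libraries spread more widely in HES1, with 274, 271, 145, 226 and 308 CPM in post-hypoxic cells, against 322, 233, 169 and 216 CPM in non-hypoxic cells. Replicate 3 was the lowest library of both FaDu populations. Means were 245 ± 62.8 and 235 ± 63.9 CPM (SD, n = 5 post-hypoxic and 4 non-hypoxic), with a log2 fold change of 0.06 (SE 0.17, 95% interval −0.29 to 0.41, edgeR adjusted p = 1). Between the lines HES1 gave −0.22 on the log2 scale in post-hypoxic cells (SE 0.17, edgeR adjusted p = 0.252) and 0.12 in non-hypoxic cells (SE 0.17, edgeR adjusted p = 0.525). Without post-hypoxic FaDu replicate 3 the first of these was −0.36 and was called (edgeR adjusted p = 0.0310).

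HEY1, a related repressor known from vessel development (chromosome 8, 79764010 to 79767863, minus strand), was close to the detection limit in FaDu. SCC154 cells had 10.6, 14.9, 8.20 and 12.3 CPM when post-hypoxic, against 12.8, 15.0, 19.6, 13.4 and 14.1 CPM when non-hypoxic. FaDu cells had 0.545, 1.84, 0.454, 2.06 and 2.64 CPM when post-hypoxic, against 0.951, 1.74, 0 and 1.62 CPM when non-hypoxic, from 0 to 6 counts per library. Every SCC154 library exceeded every FaDu library. The log2 fold change of SCC154 over FaDu was 2.82 in post-hypoxic cells (SE 0.37, 7.07-fold, edgeR adjusted p = 3.70e-07) and 3.70 in non-hypoxic cells (SE 0.40, 13.03-fold, edgeR adjusted p = 2.35e-08). These folds rest on 17 counts in all over the 5 post-hypoxic and 9 over the 4 non-hypoxic FaDu libraries. HEY1 was also called in both populations with no filter on low counts. Within SCC154 the post-hypoxic mean was 11.5 ± 2.82 CPM and the non-hypoxic mean 15.0 ± 2.68 CPM (SD, n = 4 and 5), a log2 fold change of −0.39 (SE 0.26, 95% interval −0.93 to 0.15, edgeR adjusted p = 0.496). The FaDu value, 0.49 (SE 0.58, 95% interval −0.72 to 1.70, edgeR adjusted p = 1), came from these few counts and was not called.

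**Figure D3:**
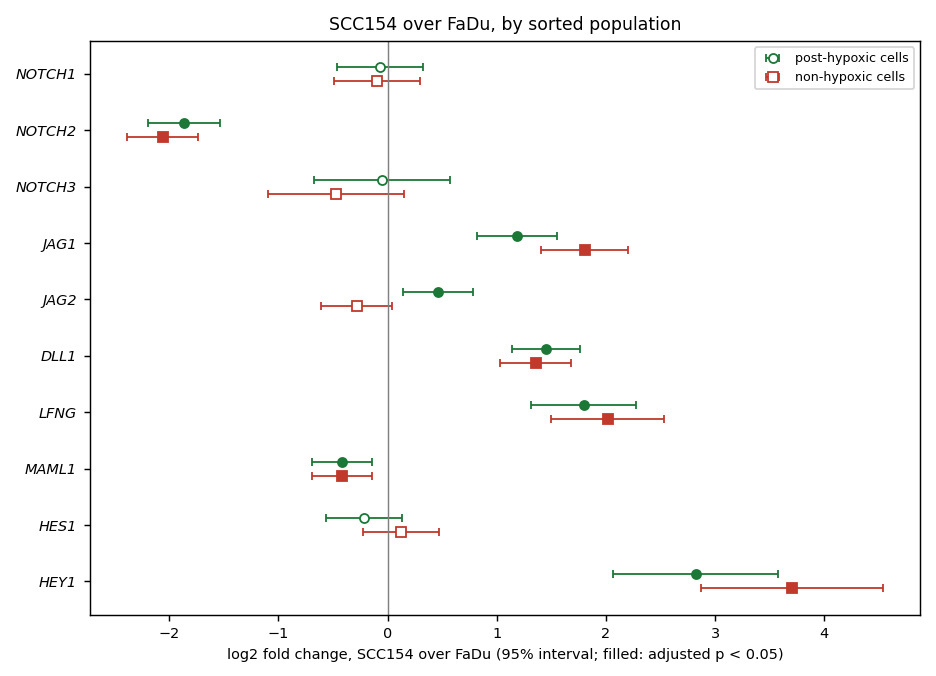
Log2 fold change of SCC154 over FaDu (horizontal axis) for each of the 10 genes, in post-hypoxic and in non-hypoxic cells; points are edgeR estimates, bars are 95% intervals, and filled symbols passed an adjusted p of 0.05. NOTCH2 lies furthest to the left (−1.86 and −2.06) and HEY1 furthest to the right (2.82 and 3.70).

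Ordered by mean level, the groups of each gene fell into 3 patterns. NOTCH2 and MAML1 were highest in the FaDu groups, and JAG1, DLL1, LFNG and HEY1 in the SCC154 groups, with no called difference between the populations of a line. NOTCH1, NOTCH3 and HES1 had no called difference in any comparison tested in the edgeR fit of all 18 libraries without a block. Groups that differ in both line and population were not compared. JAG2 was highest in post-hypoxic SCC154 cells (76.3 ± 8.75 CPM), followed by non-hypoxic FaDu (68.4 ± 20.7 CPM), non-hypoxic SCC154 (56.4 ± 7.395 CPM) and post-hypoxic FaDu cells (55.4 ± 6.04 CPM). Of its comparisons in the edgeR fit of all 18 libraries without a replicate block, only post-hypoxic SCC154 over post-hypoxic FaDu was called.

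The rest of the pathway was read from a list of 59 further genes, of which 48 passed the filter on low counts and were tested. Between post-hypoxic and non-hypoxic cells 0 of 48 were called in SCC154 (background 0.757%) and 0 of 48 in FaDu (background 0%) by edgeR, with 9 and 0 genes at an unadjusted p under 0.05. The counts by limma voom were 0 in both lines. DESeq2 called 1 gene in SCC154, FBXW7, and 0 in FaDu. With the replicate block edgeR called FBXW7, HES2 and NEURL1 in SCC154 and 0 genes in FaDu. When genes with low counts were kept, 1 gene was called in SCC154, NEURL1 (−0.62, edgeR adjusted p = 0.0281). It encodes a Neuralized-type ligase that averaged 47.6 ± 8.81 CPM in post-hypoxic and 73.0 ± 16.2 CPM in non-hypoxic cells (SD, n = 4 and 5). With the filter its log2 fold change was −0.62 (SE 0.21, edgeR adjusted p = 0.153). FBXW7 encodes the ubiquitin ligase subunit that marks the Notch intracellular part for destruction. It ranged from 141 to 154 CPM in post-hypoxic and from 172 to 205 CPM in non-hypoxic SCC154 libraries, without overlap, and edgeR gave a log2 fold change of −0.33 (SE 0.10, adjusted p = 0.102). HES2, a HES family repressor, ranged from 10.1 to 11.1 CPM in post-hypoxic and from 14.8 to 17.4 CPM in non-hypoxic SCC154 libraries, with a log2 fold change of −0.62 (SE 0.21, edgeR adjusted p = 0.156). In all, 4 of the 48 genes had groups that did not overlap in SCC154, where the background was 5.55%: DLL3 and CTBP1 with the post-hypoxic libraries above, FBXW7 and HES2 with them below. These 4 genes and NEURL1 are named here after their values were seen.

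Between the lines the wider pathway differed about as often as all genes did. In post-hypoxic cells 33 of 48 genes were called, 21 higher and 12 lower in SCC154 (background 69.7%), with a median log2 fold change of 0.28 while that of all tested genes was 0.01. In non-hypoxic cells 32 of 48 were called, 21 higher and 11 lower (background 68.9%), with a median of 0.34 while that of all tested genes was −0.01. These medians were the same to the digits given with the genes that had no FaDu count set at their lower bound. MAML2 and HES7 passed the filter on low counts through their SCC154 libraries, and MFNG through its FaDu libraries. APH1B and DLL4 failed it, and were called higher in SCC154 in both populations with no filter and by DESeq2. MAML3 and HEYL failed it too, and were called lower in SCC154 among post-hypoxic cells in those fits.

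Among the other ligands, DLL3, an atypical Delta-like protein that acts mostly inside the cell, was 133 ± 5.53 CPM in SCC154 and 17.5 ± 2.61 CPM in FaDu for post-hypoxic cells, with a log2 fold change of 2.93 (SE 0.11, edgeR adjusted p = 3.67e-16). In non-hypoxic cells it was 117 ± 4.82 CPM in SCC154 and 14.9 ± 0.297 CPM in FaDu, with a log2 fold change of 2.97 (SE 0.12, edgeR adjusted p = 1.55e-15). MFNG, Manic fringe, which has the same enzyme activity as LFNG, ran the other way from LFNG. It averaged 3.66 ± 0.332 CPM in SCC154 and 59.8 ± 8.45 CPM in FaDu for post-hypoxic cells, a log2 fold change of −4.01 (SE 0.24, edgeR adjusted p = 9.78e-13), and gave −4.12 in non-hypoxic cells (SE 0.23, edgeR adjusted p = 2.43e-13). Thus LFNG was higher and MFNG lower in SCC154. MFNG passed the filter on low counts through FaDu, where it was high. It had 6 to 9 counts per post-hypoxic and 5 to 13 per non-hypoxic SCC154 library. POGLUT1, which adds glucose to Notch, was lower in SCC154 than in FaDu among post-hypoxic cells (−0.42, edgeR adjusted p = 0.0212), but was not called without post-hypoxic SCC154 replicate 2 (−0.38, edgeR adjusted p = 0.0621), post-hypoxic SCC154 replicate 4 (−0.35, edgeR adjusted p = 0.0741) or post-hypoxic FaDu replicate 1 (−0.31, edgeR adjusted p = 0.0767).

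Of 5 tested genes for the uptake of ligand by the sending cell, 2 were called higher and 1 lower in SCC154 in each population. MIB1 and MIB2, Mind bomb ubiquitin ligases, gave log2 fold changes of 0.50 and 2.12 in post-hypoxic cells and 0.82 and 1.67 in non-hypoxic cells. The gene called lower was NEURL1 in post-hypoxic cells (−0.57) and NEURL1B in non-hypoxic cells (−0.83), both Neuralized-type ligases. In post-hypoxic cells NEURL1 was not called without post-hypoxic SCC154 replicate 2 (−0.43, edgeR adjusted p = 0.0912) or post-hypoxic FaDu replicate 5 (−0.44, edgeR adjusted p = 0.0739). In non-hypoxic cells NEURL1 ran the other way, with 73.0 ± 16.2 CPM in SCC154 and 54.3 ± 14.4 CPM in FaDu, and was not called. Some alternatives called it higher there, such as no filter (0.43, edgeR adjusted p = 0.0236) and the shared replicate block (0.34, edgeR adjusted p = 0.0110). Of 7 tested proteases and their partners, 3 were called higher and 1 lower in each population. ADAM10, which makes the first activating cut, gave 0.97 in post-hypoxic cells (edgeR adjusted p = 5.55e-08) and 0.98 in non-hypoxic cells (edgeR adjusted p = 8.57e-08). FURIN, which cuts the receptor during its maturation, gave −2.39 in post-hypoxic cells (edgeR adjusted p = 3.75e-13) and −2.20 in non-hypoxic cells (edgeR adjusted p = 6.44e-13).

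Of 9 tested inhibitors and turnover genes, 4 were called higher and 2 lower in SCC154 in each population. NUMBL, a relative of the Notch antagonist NUMB, was 172 ± 11.9 CPM in SCC154 and 22.2 ± 5.08 CPM in FaDu for post-hypoxic cells, with log2 fold changes of 2.94 in post-hypoxic and 2.91 in non-hypoxic cells (edgeR adjusted p = 3.32e-13 and 1.56e-12). FBXW7 gave 0.66 in post-hypoxic and 1.00 in non-hypoxic cells, and DTX4, a Deltex-type ubiquitin ligase, 3.05 and 1.83. NRARP, a feedback inhibitor that is itself switched on by Notch, was 21.6 ± 4.22 CPM in SCC154 and 107 ± 10.5 CPM in FaDu for post-hypoxic cells, and 21.7 ± 4.23 CPM in SCC154 and 93.7 ± 16.7 CPM in FaDu for non-hypoxic cells. Its log2 fold changes were −2.33 (SE 0.16, edgeR adjusted p = 1.34e-11) and −2.10 (SE 0.16, edgeR adjusted p = 4.45e-11). The NRARP promoter entry held neither word searched for above.

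In the nuclear complex, RBPJ gave log2 fold changes of 0.57 and 0.47 in post-hypoxic and non-hypoxic cells, and CREBBP, a histone acetyltransferase, −2.84 and −2.61 (edgeR adjusted p = 7.56e-14 and 1.20e-13). MAML2, the Mastermind relative of MAML1, had 134 counts over post-hypoxic SCC154 libraries against 2 over post-hypoxic FaDu libraries, a ratio of 83.4 with an exact 95% counting interval of 22.6 to 696. In non-hypoxic cells it had 201 counts in SCC154 and 0 in FaDu, at least 52.4-fold higher with a floor of 3 counts over the group. Among the corepressors 4 were called higher and 4 lower in each population, of 10 tested. TLE3 and TLE4, Groucho-type corepressors that HES proteins recruit, differed in opposite directions, with log2 fold changes of −3.25 and 2.81 in post-hypoxic cells and −3.18 and 3.29 in non-hypoxic cells. CIR1, a corepressor that binds RBPJ, gave 1.71 and 1.53 in post-hypoxic and non-hypoxic cells (edgeR adjusted p = 3.41e-11 and 4.62e-10).

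Of the HES and HEY factors besides the members, 4 were tested. HES2, HES4 and HES6 were called higher in SCC154 in both populations, where 34.8% of all genes were called higher in post-hypoxic and 34.5% in non-hypoxic cells. HES7 was called as well but had no count in FaDu, passed the filter on low counts through SCC154 and failed it with the libraries of either comparison alone. HES4, whose promoter is shown above beside that of HES1, was 49.7 ± 12.1 CPM in SCC154 and 9.03 ± 3.63 CPM in FaDu for post-hypoxic cells, and 60.9 ± 10.02 CPM in SCC154 and 7.86 ± 0.232 CPM in FaDu for non-hypoxic cells. Its log2 fold changes were 2.44 (SE 0.22, edgeR adjusted p = 7.91e-10) and 2.94 (SE 0.23, edgeR adjusted p = 1.09e-10). HES2 gave 1.41 and 2.02 in post-hypoxic and non-hypoxic cells, and HES6 0.94 and 0.74, the last at 0.53 and no longer called without non-hypoxic SCC154 replicate 4 (edgeR adjusted p = 0.0825). HES7 had 56 counts in post-hypoxic and 53 in non-hypoxic SCC154 libraries and 0 in all FaDu libraries, at least 23.2-fold higher in post-hypoxic and 13.8-fold higher in non-hypoxic cells with a floor of 3 counts over the group. HEYL, which failed the filter on low counts, ran the other way, with 0 counts in all SCC154 libraries against 15 in post-hypoxic and 3 in non-hypoxic FaDu libraries. In post-hypoxic cells it was called lower in SCC154 with no filter (edgeR adjusted p = 0.000697) and by DESeq2 (adjusted p = 0.0158).

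**Figure D4:**
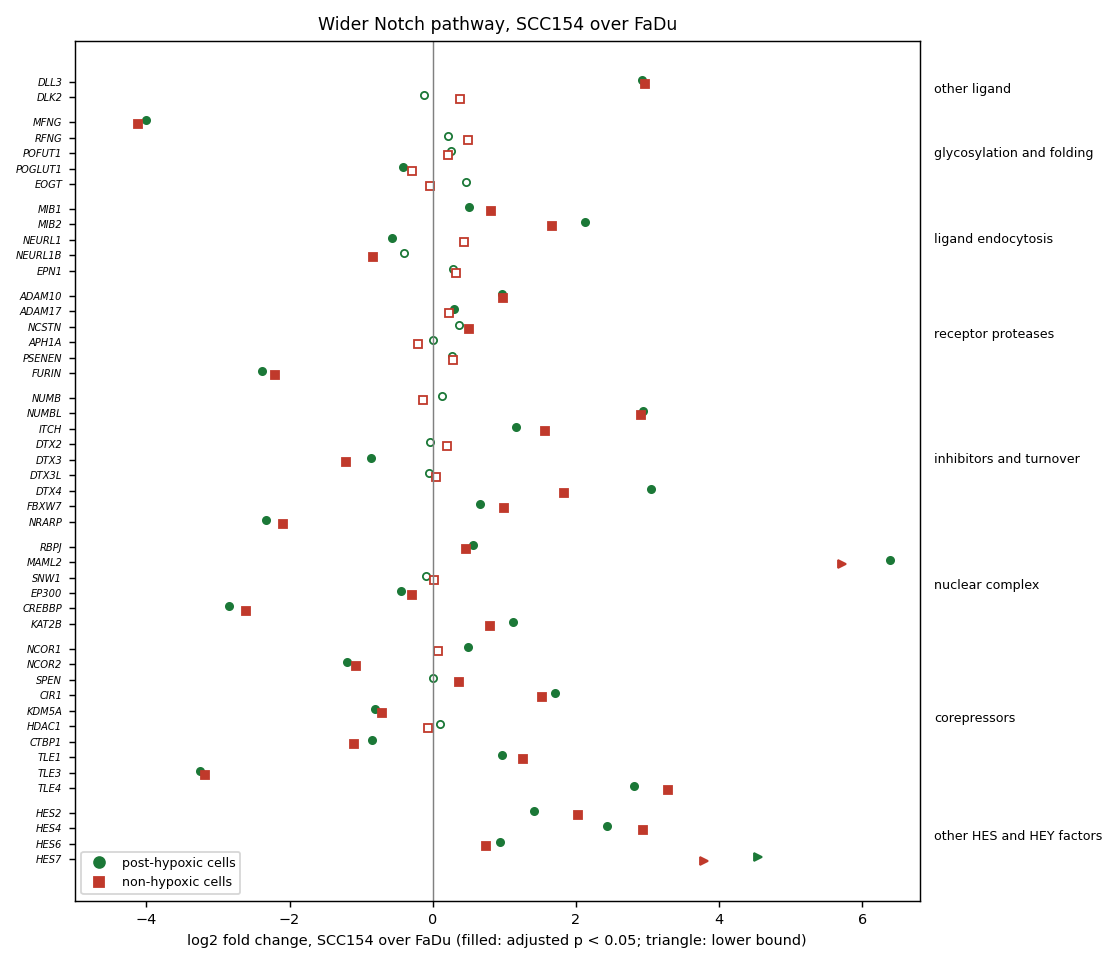
Log2 fold change of SCC154 over FaDu (horizontal axis) for tested genes of the wider pathway, grouped by role, in post-hypoxic cells (circles) and non-hypoxic cells (squares); filled symbols passed an adjusted p of 0.05 and triangles are lower bounds for genes with no FaDu count. MFNG, TLE3, CREBBP, FURIN and NRARP lie to the left of −2 in both populations, and DLL3, NUMBL, TLE4 and HES4 to the right of 2.

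For each member the gene with the most similar profile was sought among 9667 tested genes with a mean of at least 10 CPM, by Pearson's r of log2 CPM over the 18 libraries. Because the lines differ in many genes, a high r over all libraries can restate the difference between the lines, so r within each line (9 libraries, which share depth and replicate structure) is given beside it. For DLL1 it was ADAM10, the protease described above, with r = 0.984 over all libraries, 0.904 in SCC154 and 0.744 in FaDu. For NOTCH2 it was QPRT (0.991, with 0.705 in SCC154 and 0.803 in FaDu), and for JAG2 it was DNAJC5 (0.846, with 0.879 in SCC154 and 0.818 in FaDu).

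NOTCH1, whose levels overlapped between the lines, was closest to HSPA1A, a heat shock protein gene with a near-identical copy (0.877, with 0.897 in SCC154 and 0.877 in FaDu). For HES1 the closest gene was NR4A2, an early-response nuclear receptor (0.862, with 0.411 in SCC154 and 0.937 in FaDu). NOTCH3 was closest to TMEM9 (0.750, with 0.591 in SCC154 and 0.934 in FaDu), and MAML1 to TBX3 (0.940, with 0.880 in SCC154 and 0.547 in FaDu). For JAG1 it was ZNF230 (0.964, with 0.264 in SCC154 and 0.830 in FaDu), for LFNG CEP162 (0.980, with 0.678 in SCC154 and 0.875 in FaDu), and for HEY1 UNC5B-AS1 (0.983, with 0.519 in SCC154 and 0.895 in FaDu). These are descriptions of profiles, chosen as the highest of many, and carry no test.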

How the data were processed

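RNA of sorted SCC154 and FaDu cells was measured in 18 libraries with QuantSeq 3′ mRNA-seq, per the labels. The authors deposited whole-number read counts per gene symbol. Per the submitters' processing notes, the tools were featureCounts 1.5.1, HISAT2 2.2.1, DESeq2, UMI-tools 1.1.5, Trimmomatic 0.39 and FastQC 0.11.9, and the build was hg38. Settings, annotation, strandedness and the treatment of multi-mapped reads were not given in the sources used here. Intervals and floors on counts cover counting error alone. Members and lists were chosen with earlier results of these data known.

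The deposited counts were tested with edgeR 4.0.16 (R 4.3.3): filterByExpr, trimmed-mean factors and 1 quasi-likelihood model of 4 group means over 18 libraries, with Benjamini-Hochberg adjustment over 12291 genes and a threshold of 0.05. The SE is the absolute log2 fold change over the square root of F. Residual degrees of freedom were 14 and the biological coefficient of variation, common to all genes, 0.148. The fit was checked on simulated counts. Groups and replicate numbers came from sample titles. No pair of replicates matched within sampling noise. Same-numbered FaDu libraries deviated together from their group means (r across genes of 0.447, 0.178, 0.208 and 0.438), so the numbers were taken to pair the FaDu samples. In SCC154 r was 0.0292, 0.292, 0.398 and 0.144, and the numbers were not taken to pair the samples. These ranges overlap. Post-hypoxic and non-hypoxic libraries with different numbers reached r of 0.242, 0.23 and 0.216 in FaDu, above the same-numbered 0.178 and 0.208. In SCC154 such libraries reached 0.201, below the same-numbered 0.292 and 0.398. The labels do not say what a number marks, so pairing is not settled in either line.

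Alternatives were upper-quartile and DESeq2 scaling, no filter, 2 groups alone, DESeq2 1.42.0, limma voom 3.58.1, a replicate block, each library left out, and, added after seeing the data, 3 libraries left out together. The block was set within each line for post-hypoxic over non-hypoxic cells, and shared across the lines for SCC154 over FaDu. Genes named were the members; in the wider pathway, up to 3 called genes per role and comparison with the lowest p; the most similar gene per member; others are said to be chosen after their values were seen. The values of 1 gene that the rule names are not reported here. Gene positions are GENCODE v29 and promoters RefSeq GRCh38.p14.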

Additional observations from a re-analysis of the deposited data

How the results depend on the processing

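The 6 members called between the lines in non-hypoxic cells and the 7 called in post-hypoxic cells were called under all 26 alternatives. A block for the replicate number within each line, whose numbers were not taken to pair the SCC154 samples, moved the members called in SCC154 to 2. These were JAG2 (0.48, edgeR adjusted p = 0.0147) and HES1 (−0.30, edgeR adjusted p = 0.0293), with 1052 genes called in all. For the difference between the lines the block moved the members called to 1 (JAG2, 0.82, edgeR adjusted p = 0.0178), with 224 in all. In the wider pathway the block called FBXW7, HES2 and NEURL1 in SCC154 and NEURL1 for the difference between the lines, and the fit without a filter called NEURL1 in both. In FaDu, where the numbers were taken to pair the samples, the block called 0 members and 7 genes in all, with JAG1 at 0.63 (edgeR adjusted p = 0.651). Between the lines a separate block was shared by same-numbered libraries of both lines, which takes a number to mean the same in each line. That shared block changed no member's call, and the wider pathway had 35 called genes in each population. Without 1 library, JAG2 was called in non-hypoxic cells and HES1 in post-hypoxic cells, as given above. Values near 0 changed sign, the cause not being tested. For post-hypoxic over non-hypoxic SCC154 cells NOTCH1 was 0.00343 with upper-quartile scaling, 0.0267 with limma voom, 0.137 with the block and 0.188 without the 3 libraries that stand apart; MAML1 was 0.102 with the block and 0.139 without those libraries, and JAG1 0.0537 without them. In FaDu, HES1 was −0.0364 with the block, and without those libraries NOTCH3 was 0.217 and MAML1 0.00423. For the difference between the lines MAML1 was 0.0109 with upper-quartile scaling, 0.00217 without a filter, 0.0176 with limma voom, 0.150 with the block and 0.135 without those libraries. With each library left out, SCC154 values ran from −0.127 to 0.146 for NOTCH1, −0.00664 to 0.459 for NOTCH3, −0.160 to 0.00250 for JAG1, −0.0826 to 0.173 for LFNG and −0.0743 to 0.108 for MAML1. FaDu values ran from −0.142 to 0.0469 for NOTCH1, −0.160 to 0.0304 for NOTCH2, −0.403 to 0.216 for NOTCH3, −0.0599 to 0.0175 for MAML1 and −0.0694 to 0.2502 for HES1. The difference between the lines ran from −0.0818 to 0.191 for NOTCH1, −0.000427 to 0.675 for NOTCH3, −0.0332 to 0.199 for DLL1 and −0.0592 to 0.130 for MAML1. SCC154 over FaDu ran from −0.252 to 0.0219 for NOTCH1 and −0.00609 to 0.314 for HES1 in non-hypoxic cells, and from −0.262 to 0.204 for NOTCH3 in post-hypoxic cells. HEY1 in FaDu could not be fitted with the FaDu groups alone, where it failed the filter. Depth limits HEY1 and LFNG in FaDu most, with 0 to 6 and 6 to 13 counts per library. With 4 or 5 libraries a group, a member uncalled between populations may still differ within its printed interval. None of the 40 sets of values of a member in a group held a library far from the others by Dixon's test, where chance would flag about 2. With 4 or 5 values the gap had to exceed 0.829 or 0.71 of the range. The test therefore cannot show that no single library carries a result.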
